A study of Mus musculus with 9 samples.

Results

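The granins and prohormone processing genes were 10 genes, selected by symbol: Chga, Chgb, Scg2, Scg3, Scg5, Pcsk1, Pcsk1n, Pcsk2, Cpe and Scgn. All 10 were found among the 29288 genes of the count table, and all 10 had enough reads to be among the 18933 genes tested. RNA was sequenced from live intestinal epithelial cells (IECs), sorted as EpCAM+ and free of the red cell, endothelial and leukocyte surface proteins Ter119, CD31 and CD45, taken from small intestinal crypts (proximal part) of 9 wild-type C57BL/6J mice, all female. The control group was 3 mice given PBS and sampled at 18 h, the 18h-αGal group was 3 mice sampled 18 h after an intraperitoneal injection of 2 µg of α-galactosylceramide (αGalCer), and the 72h-αGal group was 3 other mice sampled 72 h after it. αGalCer is a lipid antigen that activates natural killer T (NKT) cells when CD1d presents it, and the study asked how that activation changes the epithelium. No PBS group was sampled at 72 h, so the effect of αGalCer at 72 h and that of the sampling time cannot be told apart.

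Hormones of the gut are made by enteroendocrine cells, rare secretory cells of the epithelium that arise in the crypt. The hormones are translated as long precursors, packed with acidic granin proteins into dense-core granules, and cut there. The prohormone convertases PC1/3 (gene Pcsk1) and PC2 (gene Pcsk2) cleave precursors after pairs of basic residues, and carboxypeptidase E (gene Cpe) then trims the basic residues left at the new end. ProSAAS (gene Pcsk1n) and 7B2 (gene Scg5) bind PC1/3 and PC2, respectively. Granins are precursors too, and Chga is widely used as a marker of enteroendocrine cells.

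Libraries held between 8887861 (control replicate 3) and 32722293 (control replicate 1) counts. The sorted cells carried the epithelial markers Epcam, Cdh1, Vil1, Krt8, Krt18, Krt19 and Cdx2, which together took 4740 to 5830 CPM (reads scaled to a common library total) in every library. The 10 enteroendocrine markers, among them Chga and Chgb, summed to 554 to 638 CPM in control, 756 to 1200 CPM in 18h-αGal and 264 to 367 CPM in 72h-αGal libraries. Granins are also made by nerve cells, so markers of enteric neurons and glia were counted. Of 10 such markers, 8 were in the table and 5 were tested, and their sum was 4.84 to 7.73 CPM in control, 1.94 to 3.34 CPM in 18h-αGal and 3.07 to 4.37 CPM in 72h-αGal libraries. The neuronal marker Stmn2 had 0 counts in 8 of 9 libraries, whereas the neuronal marker Elavl3 had 6, 9 and 0 raw counts in control, 47, 10 and 12 in 18h-αGal and 20, 17 and 22 in 72h-αGal libraries. None of the 5 tested was called in any comparison. The sum over the list was lowest at 18 h, where the granins were highest, although Elavl3 did not follow the sum. Leukocyte markers summed to 34.5 to 69.8, 59.0 to 62.7 and 50.1 to 89.0 CPM in control, 18h-αGal and 72h-αGal libraries, mostly reads of Kit. Kit had 265 to 2025 raw counts in a library, and no other leukocyte marker in the table had more than 77. Of 10 leukocyte markers 8 were in the table and 6 were tested, and 0 were called in any comparison. Endothelial and stromal markers summed to 3.67 to 4.76, 0.974 to 2.05 and 1.97 to 2.19 CPM in control, 18h-αGal and 72h-αGal libraries. Only 2 of these 8 markers were tested, and 0 were called. The part of these other cells in the results was not tested.

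The members differed widely in level. Levels of different genes were compared as normalised counts per kilobase of annotated exon (mean ± SD of 3 mice). In control mice Chgb, the granin chromogranin B, was highest at 672 ± 55.8. It was followed by Chga (chromogranin A) at 157 ± 10.8, Cpe at 143 ± 24.3, Scg2 (secretogranin II) at 138 ± 97.1 and Pcsk1 at 101 ± 3.12 per kilobase. Scgn, which encodes the calcium-binding protein secretagogin, had 76.9 ± 18.1, Pcsk1n had 24.5 ± 9.58 and Scg3 (secretogranin III, which binds chromogranin A) had 15.1 ± 3.60 per kilobase. Scg5 had 6.40 ± 2.96, and Pcsk2 was lowest at 1.36 ± 0.72 per kilobase. The spread of Chga, Cpe and Scg2 overlapped in control mice, so their order was not resolved, and the wide spread of Scg2 also covered Pcsk1 and Scgn. Pcsk1n and Scg3 were not resolved from each other either. Of the convertase genes, Pcsk1 was thus far above Pcsk2. Chgb was also highest at 18 h (1106 per kilobase) and at 72 h (319.5), and the last 4 genes kept their order. In between, Scg2 (274), Cpe (244) and Chga (238) led at 18 h, and Cpe (96.9), Scg2 (74.7), Chga (71.0) and Scgn (63.0) at 72 h, where Pcsk1 had 51.8 per kilobase. With the longest transcript as the length, Chga stood at 303.5 and Cpe at 198 per kilobase in control mice with the order unchanged there, and Chga was second to Chgb in every group, at 461.5 and 137 per kilobase at 18 and 72 h.

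**Figure D1:**
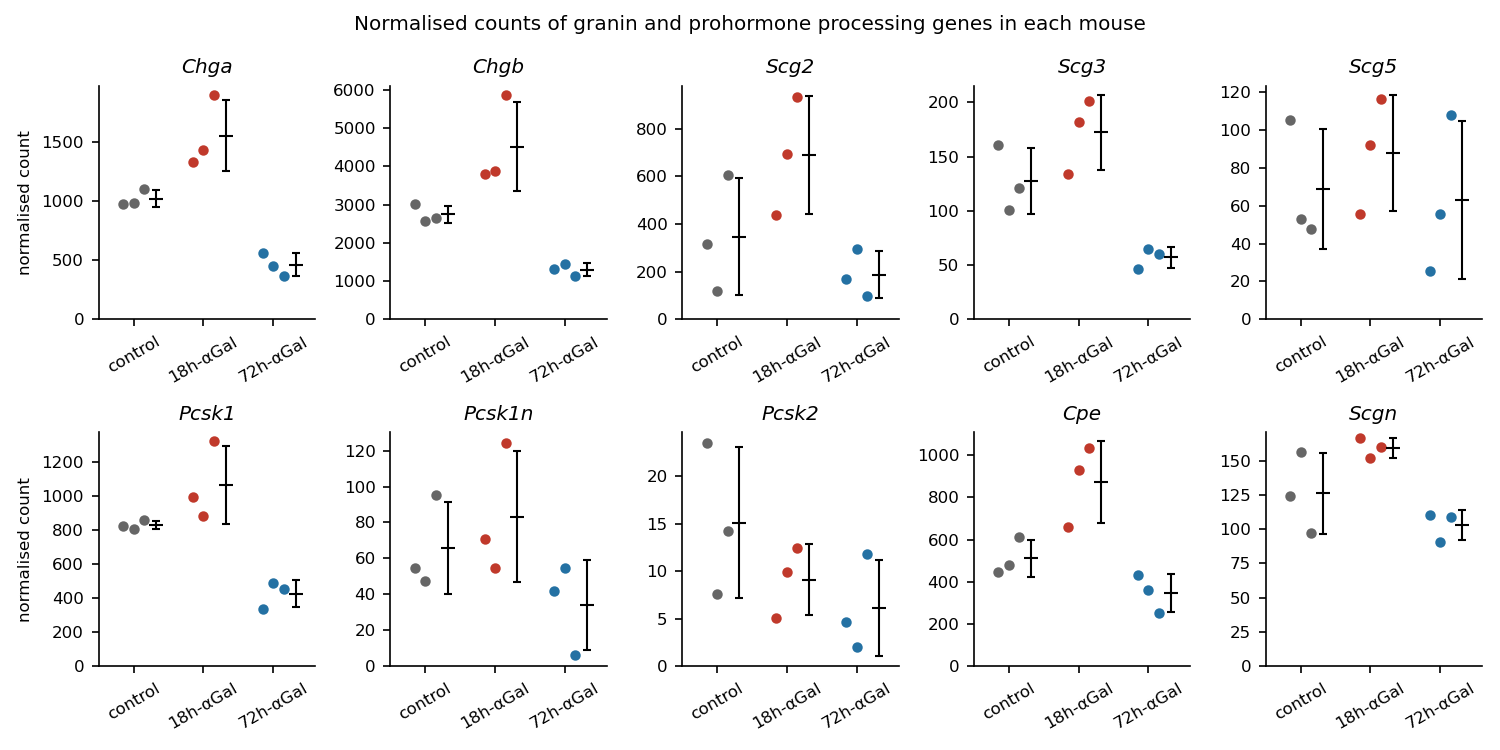
Normalised counts (y axis, linear and starting at 0) of the 10 genes in each of 3 control, 3 18h-αGal and 3 72h-αGal mice (1 point per mouse), with the mean and SD of each group as a bar beside the points. For Chga, Chgb, Pcsk1 and Cpe the 3 groups did not overlap, with 18h-αGal highest and 72h-αGal lowest.

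The chromogranins Chga and Chgb rose at 18 h and fell below control at 72 h. Chga (ENSMUSG00000021194, chromosome 12 from 102520484 to 102531300, GRCm39) had 978, 984 and 1103 normalised counts in the control mice, 1330, 1435 and 1897 in the 18h-αGal mice, and 562, 456 and 370 in the 72h-αGal mice. The 3 groups did not overlap. Its log2 fold change was 0.61 ± 0.17 (SE) at 18 h, a 1.53-fold rise with an edgeR adjusted p of 0.0469, and -1.13 ± 0.17 at 72 h, a 2.19-fold fall with an adjusted p of 0.0390. Chgb (ENSMUSG00000027350, chromosome 2 from 132622464 to 132637904) had 3008, 2584 and 2651 normalised counts in control, 3807, 3890 and 5867 in 18h-αGal and 1323, 1460 and 1135 in 72h-αGal mice. Again no group overlapped another, and 18h-αGal replicate 3 was the highest library for both genes. Chgb had a log2 fold change of 0.72 ± 0.16 at 18 h (adjusted p of 0.0138) and -1.06 ± 0.16 at 72 h (adjusted p of 0.0349). Between 18 and 72 h the log2 fold change was -1.74 ± 0.17 for Chga and -1.78 ± 0.16 for Chgb, which is 3.34-fold and 3.44-fold, with adjusted p of 5.93e-05 and 3.76e-05. In bulk RNA of sorted cells, fewer enteroendocrine cells and less RNA of a gene in each of them cannot be told apart.

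Several of these calls lay close to the threshold and were lost when 1 library was left out, each with its direction kept. At 18 h the adjusted p of Chga was 0.154, 0.120, 0.101, 0.145 and 0.0651 without control 1, control 2, 18h-αGal 2, 18h-αGal 3 and 72h-αGal 2, respectively, and that of Chgb was 0.0519 without control 2. At 72 h the adjusted p of Chga was 0.281, 0.0972, 0.0847, 0.0821, 0.178 and 0.269 without control 1, control 2, 18h-αGal 2, 72h-αGal 1, 72h-αGal 2 and 72h-αGal 3, and that of Chgb was 0.332, 0.0715, 0.265, 0.0984 and 0.269 without control 1, control 2, 72h-αGal 1, 72h-αGal 2 and 72h-αGal 3. Other settings of the fit also ended calls. The call of Chga at 18 h was lost with RLE scaling (adjusted p of 0.0546), without robust estimation (0.0601), with only the 6 libraries compared (0.0644) and with the replicate block (0.0865). At 72 h both calls were lost without robust estimation (0.0855 for each gene) and with the replicate block (0.142 for each), and that of Chga also with only the 6 libraries compared (0.103). The fall from 18 to 72 h was called for both genes under every alternative run.

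The secretogranin genes had fold changes of the same signs as the chromogranins, with more scatter. Scg2 (chromosome 1 from 79412386 to 79417837) had 318, 118 and 604 normalised counts in control, 438, 692 and 934 in 18h-αGal and 170, 294 and 100.1 in 72h-αGal mice. Control and 18h-αGal mice overlapped, while all 72h-αGal mice were below all 18h-αGal mice. Scg2 had log2 fold changes of 1.02 ± 0.61 at 18 h, -0.84 ± 0.62 at 72 h and -1.87 ± 0.62 between the times, with edgeR adjusted p of 0.406, 0.904 and 0.110, so no comparison passed. Scg3 (chromosome 9 from 75546929 to 75591396) had 160, 101 and 121 normalised counts in control, 134, 181 and 201 in 18h-αGal and 46.3, 64.5 and 60.3 in 72h-αGal mice. Its 72h-αGal values were below those of both other groups. Scg3 fell between 18 and 72 h by 1.58 ± 0.32 on the log2 scale (adjusted p of 0.00697). Against control its log2 fold change was 0.43 ± 0.31 at 18 h (adjusted p of 0.482) and -1.14 ± 0.32 at 72 h (adjusted p of 0.701), close in size to the change of Chga at 72 h but with a larger error.

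**Figure D2:**
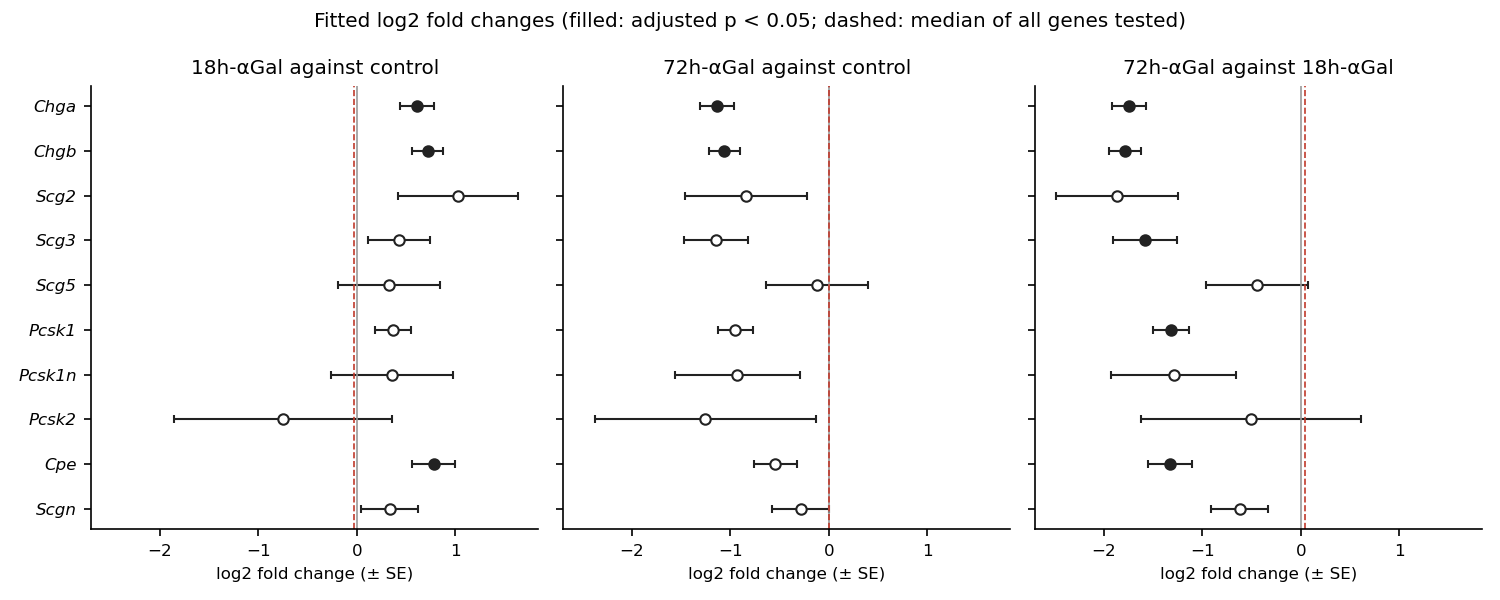
Log2 fold change (x axis, points with SE bars) of each of the 10 genes in 3 comparisons, from 1 edgeR fit of all 9 libraries. Filled points had an adjusted p under 0.05, and the dashed line marks the median of all 18933 genes tested. At 18 h, 9 of 10 points lie above 0, and in both comparisons of 72h-αGal all 10 lie below 0.

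Of the convertase genes, Pcsk1 fell between 18 and 72 h and Pcsk2 was near the limit of detection. Pcsk1 (ENSMUSG00000021587, chromosome 13 from 75237284 to 75284898) had 822, 806 and 856 normalised counts in control, 991, 882 and 1322 in 18h-αGal and 336, 485 and 451 in 72h-αGal mice. All 3 groups were separate, although 18h-αGal replicate 2 lay only just above the highest control. The log2 fold change at 18 h was 0.37 ± 0.18 with an edgeR adjusted p of 0.256, and at 72 h it was -0.95 ± 0.18 with an adjusted p of 0.201. Neither passed over all genes, though DESeq2 (adjusted p of 0.00445) and the fit without a filter on low counts (adjusted p of 0.00296) called Pcsk1 lower at 72 h. Between 18 and 72 h Pcsk1 fell by 1.32 ± 0.18 on the log2 scale, a 2.49-fold change with an adjusted p of 0.000624.

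Pcsk2 (chromosome 2 from 143387993 to 143659507) had 40, 8 and 6 raw counts in control, 8, 11 and 9 in 18h-αGal and 4, 2 and 16 in 72h-αGal libraries. These counts were too few to show a change of moderate size. The log2 fold changes of Pcsk2 were -0.75 ± 1.11, -1.25 ± 1.12 and -0.51 ± 1.12 at 18 h, at 72 h and between the times, with edgeR adjusted p from 0.770 to 0.924. Of its exon bases, 99 also belong to Pcsk2os2 on the opposite strand, which was counted separately, and the strand setting of the counting was not given.

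The genes of the convertase-binding proteins did not change detectably. Scg5, the gene of 7B2, had 105, 53.1 and 47.5 normalised counts in control, 55.5, 91.6 and 116 in 18h-αGal and 25.5, 55.5 and 107 in 72h-αGal mice, and all groups overlapped. Its log2 fold changes lay between -0.45 ± 0.52 and 0.32 ± 0.52 in the 3 comparisons, with edgeR adjusted p from 0.665 to 0.996. Pcsk1n, the gene of proSAAS on chromosome X, had 54.6, 47.5 and 95.1 normalised counts in control, 70.6, 54.8 and 124 in 18h-αGal and 41.7, 54.5 and 5.89 in 72h-αGal mice. The low value of 72h-αGal replicate 3 rested on 8 raw counts. The log2 fold change of Pcsk1n was -1.29 ± 0.63 between 18 and 72 h with an adjusted p of 0.227, and 0.36 ± 0.62 and -0.93 ± 0.63 against control at 18 and 72 h, with adjusted p of 0.806 and 0.890.

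Cpe, the gene of the carboxypeptidase that acts after the convertases, rose at 18 h. Cpe (ENSMUSG00000037852, chromosome 8 from 65045555 to 65146435) had 447, 477 and 611 normalised counts in control, 658, 930 and 1033 in 18h-αGal and 430, 360 and 252 in 72h-αGal mice. No group overlapped another, but the highest 72h-αGal mouse was just below the lowest control. The log2 fold change at 18 h was 0.78 ± 0.22, a 1.72-fold rise with an edgeR adjusted p of 0.0483, and between 18 and 72 h it was -1.32 ± 0.22 with an adjusted p of 0.00214. At 72 h against control it was -0.54 ± 0.22 with an adjusted p of 0.826. The call at 18 h was lost without control 1 (adjusted p of 0.177), control 2 (0.129), 18h-αGal 2 (0.162), 18h-αGal 3 (0.126), 72h-αGal 1 (0.0548) or 72h-αGal 2 (0.0655). It was also lost with RLE scaling (0.0542), without robust estimation (0.0600), with only the 6 libraries compared (0.0652) and with the replicate block (0.0888).

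Scgn, whose product binds calcium in endocrine cells, was not called in any comparison. It had 124, 157 and 97.5 normalised counts in control, 166, 152 and 160 in 18h-αGal and 110, 90.8 and 109 in 72h-αGal mice. The treated groups did not overlap each other, and each overlapped control. The log2 fold change was -0.62 ± 0.29 between 18 and 72 h with an edgeR adjusted p of 0.205, and 0.34 ± 0.29 and -0.28 ± 0.29 at 18 and 72 h against control, with adjusted p of 0.570 and 0.945.

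Counted together, 3 of the 10 genes were called higher at 18 h (Chga, Chgb and Cpe), where 3.27% of all genes tested were called higher, and 0 were called lower. The 18h-αGal mice were all above the control mice for 4 of the 10, against 11.5% of all genes. The same 3 had an unadjusted p below 0.05 in that direction, against 10.5% of all genes. At 72 h, 2 of the 10 were called lower than control (Chga and Chgb), where 0.0264% of all genes, 5 in number, were called lower. An unadjusted p under 0.05 was reached in the lower direction by 5 of the 10 (Chga, Chgb, Scg3, Pcsk1 and Cpe), against 3.58% of all genes, and the 72h-αGal mice were all below control for the same 5, against 6.3% of all genes. Between 18 and 72 h, 5 of the 10 were called lower (Chga, Chgb, Scg3, Pcsk1 and Cpe), against 6.04% of all genes. Unadjusted, 7 were lower at a p below 0.05, against 12.8%. The 72h-αGal mice were all below the 18h-αGal mice for 8 of the 10, against 16.3% of all genes. The median log2 fold change of the 10 genes was 0.40 at 18 h, -0.94 at 72 h and -1.32 between the times, beside -0.03, 0.00 and 0.05 over all genes tested. The 10 genes were chosen with earlier results of these data known, so their counts beside the shares of all genes are a description and no independent test. Both comparisons with control used the same 3 control libraries. Without 1 library the number called ranged from 0 to 3 at 18 h (0 without control 2, and 1 without control 1, 18h-αGal 2, 18h-αGal 3 or 72h-αGal 2) and from 0 to 2 at 72 h (0 without control 1, control 2 or any 72h-αGal library, and 1 without 18h-αGal 2), and was 5 or 6 between the times. Without control 3, the library with the fewest reads, it was 3, 2 and 5.

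To see whether the genes kept their proportions, raw counts of pairs of genes were divided within each library, which removes library scaling. These ratios are given as a description, with no test. The Chgb to Chga ratio was 3.08, 2.63 and 2.40 in control, 2.86, 2.71 and 3.09 in 18h-αGal and 2.35, 3.20 and 3.07 in 72h-αGal libraries. The 3 groups overlapped, so the chromogranins moved in proportion within the spread of the mice. The Cpe to Chga ratio was 0.457, 0.485 and 0.554 in control, 0.494, 0.648 and 0.545 in 18h-αGal and 0.765, 0.790 and 0.682 in 72h-αGal libraries. Here every 72h-αGal library was above every other library, so that Cpe was higher relative to Chga at 72 h. The Pcsk1 to Chga ratio was 0.840, 0.819 and 0.776 in control libraries and lower in all 18h-αGal libraries, at 0.745, 0.615 and 0.697. In 72h-αGal libraries it was 0.598, 1.06 and 1.22 and overlapped both other groups. The Scg2 to Chga ratio ranged from 0.120 to 0.547 in control, from 0.330 to 0.492 in 18h-αGal and from 0.270 to 0.644 in 72h-αGal libraries.

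**Figure D3:**
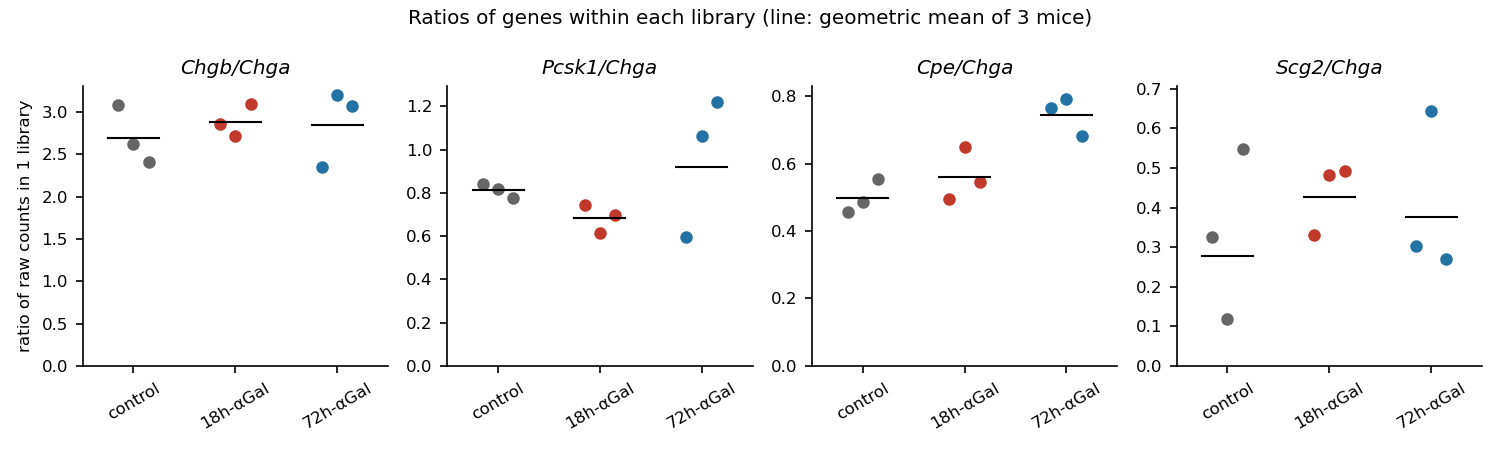
Ratio of raw counts of a gene to those of Chga in the same library (y axis, linear and starting at 0) for Chgb, Pcsk1, Cpe and Scg2, with 1 point per mouse and a line at the geometric mean of each group of 3. The Cpe to Chga ratio lies between 0.682 and 0.790 in 72h-αGal and between 0.457 and 0.648 in the other 6 libraries, while the Chgb to Chga ratio overlaps between all groups.

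The promoters of the genes were searched for short motifs, as a description with no test. Of the 10 genes, 9 had a promoter in the RefSeq table (build GRCm38.p6), and Cpe had none there. The 250 bases before each start were searched on both strands, and each matched GRCm39 at 1 place on its chromosome. The cyclic AMP response element (CRE), TGACGTCA, a site bound by CREB family transcription factors in many neuroendocrine genes, was in 3 of 9 (Chgb, Scg2 and Pcsk1) and in 1.56% of all 32536 promoters of this length. The shorter core TGACG, which every CRE contains on both strands, was in 7 of 9 and in 17.85% of all promoters. The E-box CAGCTG was in 2 of 9 (Chga and Pcsk2) and in 13.05% of all. The E-boxes CAGATG and CATATG were in 0 of 9, and in 14.42% and 3.42% of all. A match describes the sequence and does not show that a factor binds there. The 30 bases around the element are given because they show how closely each gene matches the CRE. They are written 5′ to 3′ along the gene, except for Pcsk2, where the opposite strand is given, and capitals mark the bases that match the CRE.
Chgb: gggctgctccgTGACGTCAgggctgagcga
Scg2: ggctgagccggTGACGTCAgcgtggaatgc
Pcsk1: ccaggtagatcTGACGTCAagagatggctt
Chga: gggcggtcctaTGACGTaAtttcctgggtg
Scg3: cgctgggtcgcTGACGcCAtcctcacgcct
Scg5: aaggaggtaaaTGACGTtcataggggtcga
Pcsk2: gccagcccgggTGACGcgcgcccgccagcg

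In GRCm39 these stretches lie at chr2:132623479-132623508 (Chgb, plus strand), chr1:79417793-79417822 (Scg2, minus), chr13:75237887-75237916 (Pcsk1, plus), chr12:102521145-102521174 (Chga, plus), chr9:75591350-75591379 (Scg3, minus), chr2:113659593-113659622 (Scg5, minus) and chr2:143388005-143388034 (Pcsk2, minus). Those of Chgb, Scg2, Scg3, Pcsk1 and Pcsk2 lie within exons of the same genes in the GENCODE annotation, which has transcripts that start further upstream than the RefSeq start used here, that of Chga lies partly within an exon, and that of Scg5 lies outside annotated exons. Counted from position 1 at the first T of TGACGTCA, the CRE base first, Chga differed by C7A, Scg3 by T6C, Scg5 by C7T and A8C, and Pcsk2 by T6C, C7G and A8C. The element began 72, 68 and 78 bases before the RefSeq start in Chgb, Scg2 and Pcsk1, and 44 bases before it in Chga.

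Other genes of prohormone processing were compared by a list of 11 genes, of which 10 were tested. Pam, which encodes the enzyme that amidates the ends of many gut peptides, was the only one called. It had 441, 490 and 516 normalised counts in control, 649, 885 and 941 in 18h-αGal and 444, 354 and 407 in 72h-αGal mice. The 18h-αGal mice were above all other mice. Pam rose by 0.78 ± 0.18 on the log2 scale at 18 h with an edgeR adjusted p of 0.0181, and changed by -1.03 ± 0.18 between 18 and 72 h with an adjusted p of 0.00263. At 72 h against control it had -0.25 ± 0.18 with an adjusted p of 0.893. The call of Pam at 18 h was lost without control 1, 18h-αGal 2 or 18h-αGal 3. The convertase genes Furin, Pcsk5, Pcsk6 and Pcsk7, which many cell types use, had log2 fold changes between -0.09 and 0.11 at 18 h and between -0.27 and -0.21 at 72 h, and none was called. Vgf, a granin-like precursor, had 0.20 ± 0.30 at 18 h, -0.53 ± 0.31 at 72 h and -0.73 ± 0.31 between the times, with adjusted p of 0.772, 0.881 and 0.153. Resp18, also on the list, had 0.34 ± 0.64, -1.86 ± 0.69 and -2.20 ± 0.69 in the same order. Its edgeR adjusted p were 0.829, 0.810 and 0.0563, and its 72h-αGal libraries held 17, 36 and 4 raw counts. The list's median was 0.01 at 18 h, -0.23 at 72 h and -0.19 between the times, nearer to the median of all genes than that of the 10 genes described here.

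Genes of the dense-core granule and its release were followed in a list of 30, of which 28 were tested. None was called against control at 18 or 72 h. At an unadjusted p under 0.05, 4 were higher and 2 lower at 18 h, against 1990 and 1957 of all 18933 genes tested. At 72 h, 9 were lower at that level, against 678 of 18933. DESeq2 called 3 of the 28 at 18 h and 1 at 72 h. Between 18 and 72 h, 9 were called lower and 2 higher, against 1144 and 792 of 18933. The 11 calls became 7 without 18h-αGal 2 or 72h-αGal 1. The 9 included Ptprn and Ptprn2, which encode the granule membrane proteins IA-2 and phogrin, Rab3c, a small GTPase of secretory vesicles, Syt13, a synaptotagmin, and Slc18a1, which loads monoamines into granules. Their log2 fold changes were -1.69 ± 0.30, -0.81 ± 0.15, -1.70 ± 0.21, -1.62 ± 0.30 and -1.22 ± 0.18, with edgeR adjusted p between 0.00030 and 0.00401. The other 4 lower genes were Cadps, Snap25, Baiap3 and Cplx2, with -0.76 to -1.60. Unc13b and Rph3al were higher, at 0.60 ± 0.13 and 0.56 ± 0.16, with adjusted p of 0.0107 and 0.0408. Ptprn had 87.5, 126 and 121 normalised counts in control, 195, 237 and 240 in 18h-αGal and 68.3, 85.7 and 53.0 in 72h-αGal mice. Ptprn thus had the order of the chromogranins without overlap, although its log2 fold change of 1.02 ± 0.30 at 18 h did not pass (adjusted p of 0.0584).

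**Figure D4:**
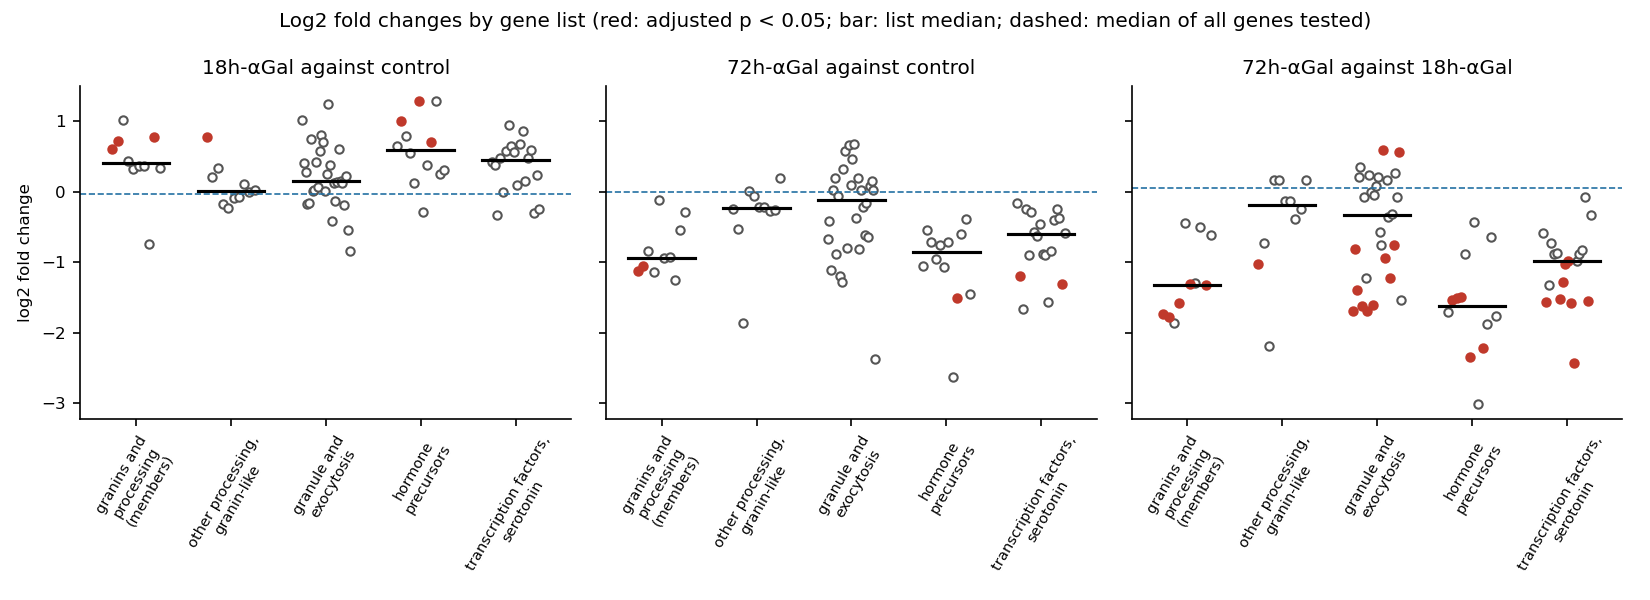
Log2 fold change (y axis) of each tested gene in 5 lists, the 10 genes described here first, for 3 comparisons. Red points had an adjusted p under 0.05, black bars are list medians and the dashed line is the median of all genes tested. The medians of the 10 genes (0.40, -0.94 and -1.32) lie nearer to those of the hormone precursors (0.60, -0.86 and -1.62) than to those of the other processing genes (0.01, -0.23 and -0.19). Those of the transcription factor and serotonin genes are 0.45, -0.61 and -0.99, the nearest to the 10 genes at 18 h. The granule and exocytosis genes have medians of 0.15, -0.11 and -0.34.

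The hormone precursors, which the convertases cut, were also compared. Of 18 hormone precursor genes listed, 12 were tested, and 3 were called higher at 18 h, where 3.27% of all genes tested were called higher. The 3 were Sst (somatostatin), Gcg (proglucagon) and Tac1 (the precursor of substance P). Their log2 fold changes were 1.29 ± 0.27, 1.0 ± 0.22 and 0.71 ± 0.20. At 72 h all 12 had a fitted log2 fold change below 0, against 9406 of all 18933 genes tested. Tac1 was called lower at 72 h, where 0.0264% of all genes were called lower. The 72h-αGal mice were all below the control mice for 5 of the 12, against 6.3% of all genes. Between 18 and 72 h, 5 of the 12 were called lower, against 6.04% of all genes, namely Sst, Tac1, Gcg, Gip and Ghrl. The list's median was 0.60 at 18 h, -0.86 at 72 h and -1.62 between the times. Of 18 listed transcription factor and serotonin genes of the lineage, all tested, 0 were called at 18 h. At an unadjusted p under 0.05, 4 of the 18 were higher and 0 lower, against 10.5% of all genes higher. At 72 h Neurod1 (a transcription factor) and Tph1 (serotonin synthesis) were called lower, against 0.0264% of all genes. Between the times 8 of the 18 were called lower, against 6.04% of all genes, among them Neurod1, Tph1, Isl1, Rfx6, Nkx2-2 and Fev. At 18 h the number of precursors called was 0 without control 2 or 18h-αGal 2, 1 without control 1 or control 3, and 2 without 18h-αGal 3 or any 72h-αGal library. The 72 h calls of Tac1, Neurod1 and Tph1 were all lost without control 1, 72h-αGal 1 or 72h-αGal 3, and without control 2 or 72h-αGal 2 no precursor and 1 of the other genes was called. The 8 calls between the times became 5 without 18h-αGal 2 or 72h-αGal 1.

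Of 11142 other tested genes with a mean of at least 100 counts, those most like the chromogranins across the 9 libraries were named by Pearson's r of log2 CPM. The libraries fall into 3 groups, so r mostly measures a shared difference between groups, and it is given as a description. Rab3c was the nearest for both Chga (r of 0.97) and Chgb (r of 0.98). For Chga it was followed by Glis3, Cacna1h, Prdx2 and Arpc2, with r between 0.96 and 0.97, and for Chgb by Gnao1, Trpa1, Sst and Vim, with r between 0.97 and 0.98. Likeness in pattern did not mean likeness in size: between 18 and 72 h Arpc2 and Prdx2 had log2 fold changes of -0.49 and -0.59, and Trpa1 and Sst had -2.26 and -2.35, all called.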

How the data were processed

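The authors prepared ribosomal RNA-depleted directional libraries (1 mouse each), sequenced them on an Illumina NovaSeq and aligned reads with HISAT2. The submitters' processing notes also name featureCounts (Subread) and DESeq2 1.42.0. The study's methods name the build GRCm39, whereas the processing notes name GRCm38 (mm10), and the count table holds no coordinates. Positions given here are those of GENCODE vM39 (GRCm39), 1-based. The annotation release and strand setting used for counting were not given in the sources used here. The deposited raw counts are whole reads per gene. The deposited normalised signal (normalised counts) equals the raw count divided by 1 DESeq2 size factor per library (largest relative difference 5.89e-15), with no correction for gene length. Of 29288 gene identifiers, 28480 matched the annotation.

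Raw counts were tested with edgeR 4.0.16 in R 4.3.3: filterByExpr, TMM scaling, and a robust quasi-likelihood fit of 3 group means to all 9 libraries (common dispersion 0.123). Benjamini-Hochberg adjustment was made over all 18933 genes tested, and a gene was called where its adjusted p was below 0.05. Each standard error came from the F statistic. On simulated counts for 18h-αGal against control, 150 of 200 genes changed 4-fold were recovered with 11 other calls among 18403 genes tested. Only 4-fold changes were simulated, with the common dispersion for every gene, so the recovery of smaller changes was not measured. Alternatives were RLE scaling, no filter on low counts, DESeq2 1.42.0, a fit without robust estimation, only the 6 libraries compared, a replicate block, the omission of each library and, for levels per kilobase, another gene length. The 10 genes, and the lists of related genes, were chosen with earlier results of these data known. Named genes were all 10, list genes called in any comparison (some are not reported here), Pam, Vgf, Ptprn and Ptprn2, and the 5 genes of most similar pattern to Chga and Chgb. Other listed genes are named in groups, or alone for Resp18, as background to these, and were chosen after their values were seen. Protein sequences were not analysed here. Depth ranged from 8887861 to 32722293 counts per library, and spread was measured between mice. Each mouse gave 1 library, so technical and biological spread cannot be told apart.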

Additional observations from a re-analysis of the deposited data

Results flagged for a closer look

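The effects at 18 and 72 h, both against the same controls, differed for 5 of the 10 genes. The direct test of the difference was the comparison of 72h-αGal with 18h-αGal in edgeR, where the shared controls cancel. In it 6.04% of all genes were called lower. No PBS group was sampled at 72 h, so effects of αGalCer and of the sampling time cannot be told apart. The difference in log2 fold change was -1.74 for Chga, -1.78 for Chgb, -1.58 for Scg3, -1.32 for Pcsk1 and -1.32 for Cpe, each lower at 72 h in 3 of 3 mice than in any 18h-αGal mouse. For all 5 the fitted log2 fold change against control was above 0 at 18 h and below 0 at 72 h, with both differences from control called for Chga and Chgb, that at 18 h alone for Cpe, and neither for Scg3 and Pcsk1. Groups of 3 mice were too small for a check of single outlying samples.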

How the results depend on the processing

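The number of the 10 genes called at 18 h was 3, and it was 1 with RLE scaling, without robust estimation, with only the 6 libraries compared and with the replicate block, and 0 to 3 when a library was left out. At 72 h the number was 2, and it was 1 with only the 6 libraries compared, 0 without robust estimation and with the replicate block, and 0 to 2 when a library was left out. Between 18 and 72 h it was 5, and 5 or 6 under every alternative run. Same-numbered libraries had deviations from their group means with correlations between -0.15 and 0.11. With so few mice in a group, these values cannot settle whether the replicate numbers pair the mice or mark a shared batch. Of single genes, Pcsk1n at 18 h changed sign without 18h-αGal replicate 3 and ranged from -0.0284 to 0.69 as libraries were left out, and Scg5 at 72 h changed sign without control replicate 1 (0.35) or 72h-αGal replicate 1 (0.25) and ranged from -0.77 to 0.35, and none of these was called. Over all genes, 1128, 5 and 1936 genes were called at 18 h, at 72 h and between the times, and 1720, 31 and 2494 with DESeq2, 1527, 13 and 2130 without a filter on low counts, 593, 4 and 2341 with only the 6 libraries compared, 1039, 3 and 1874 without robust estimation, and 781, 1 and 1371 with the replicate block. When a library was left out these counts ranged from 432 to 1556, 0 to 20 and 831 to 2593. The cause of the lost calls was not tested. Depth limits Pcsk2 most, which had 2 to 40 raw counts in a library, and intervals or floors from counts would cover counting error only.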
